A study of Mus musculus with 15 samples.

Results

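Immediate early genes are switched on in neurons within minutes to hours of synaptic activity, the fast ones from proteins already present in the cell. The levels of 41 of them were examined in the hippocampus of 3-month-old female mice, of 55471 genes in the deposited count table. Members were chosen by name as activity-induced immediate early genes, and each was found by its Ensembl identifier. They were split into 26 fast genes, whose RNA rises first and decays quickly (among them *Fos*, *Egr1*, *Arc* and *Npas4*), 14 delayed genes, whose RNA rises later or stays longer (among them *Bdnf*, *Homer1*, *Nptx2* and *Vgf*), and *Jund*, which is made steadily and belongs to neither. DM mice combined App NL-G-F/NL-G-F with Apoe4+/wt: both copies of mouse *App* carry knock-in mutations in a humanized amyloid-beta region, and 1 allele of *Apoe* is replaced by human *APOE4*. The App NL-G-F/NL-G-F genotype without *APOE4* made the APP-TKI group, ApoE4 mice were ApoE4+/wt with unaltered *App*, and WT mice were wild-type. All were females of the same age and gave 3 libraries per group from whole hippocampi. DM, APP-TKI and WT libraries formed batch 1, and ApoE4 libraries and their own WT libraries formed batch 2. Since DM and ApoE4 mice were in different batches, groups were compared within a batch, and a difference between batches cannot be told apart from anything else that separated them. The labels name no stimulus before the tissue was taken. In RNA of whole tissue, fewer cells that express a gene and less RNA per cell cannot be told apart.

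Synaptic glutamate opens NMDA receptors and voltage-gated calcium channels, and calcium and cyclic AMP then activate kinases that phosphorylate CREB and the partners of serum response factor (SRF). CREB binds the cyclic AMP response element (CRE) and SRF binds the CArG box in promoters of immediate early genes. Many of the fast genes encode transcription factors (the AP-1, Egr and Nr4a families) that act on later genes. Others encode brakes such as the Dusp phosphatases, which switch off MAP kinases, and delayed genes include secreted and synaptic proteins such as BDNF.

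Promoter sequences of RefSeq (GRCm38.p6) were at hand for 31 of the 41 members, with 47 windows of 250 bases before a start site. TGACG, the core of the CRE, searched on both strands, was present in at least 1 window of 14 of 19 fast members (73.7%) and of 7 of 11 delayed members (63.6%), against 29.4% of the 11614 tested genes with a window and 19.8% of all 27025 genes with a window. Counted by window, the share was 71.4% of 28 windows of fast members and 38.9% of 18 windows of delayed members, against 25.2% of 14937 windows of tested genes and 17.8% of all 32851 windows. Windows are not independent, as genes with several start sites, such as *Egr2*, *Csrnp1* and *Bdnf*, count several times. Some windows of *Egr2* overlap and hold the same matches. The full palindrome TGACGTCA, which holds the core on both strands, was present in 4 of the 31 members (*Btg2*, *Dusp1*, *Maff* and *Pcsk1*), or 12.9%, against 2.99% of the tested genes. A CArG box was present in *Egr2* and *Dusp5*, or 6.45% of the members with a window, against 1.38% of the tested genes. Sequence beyond 250 bases from a start site was not searched. Members without a window, among them *Egr1*, *Egr3* and *Arc*, could not be assessed. These matches are descriptions of the letters in the windows. The windows of 5 of the members compared below are given, in lower case with matches to TGACG (either strand) or to the CArG box in capitals. *Fos*, *Btg2* and *Dusp1* had lower levels in ApoE4 than in WT libraries, and *Nr4a3* and *Dusp5* had lower levels in DM and APP-TKI than in WT libraries. None of these differences was called at an adjusted p under 0.1 with edgeR's quasi-likelihood test. A link between the matches and these levels was not tested.
Fos (GRCm38.p6, chr12:85473640-85473889, plus strand): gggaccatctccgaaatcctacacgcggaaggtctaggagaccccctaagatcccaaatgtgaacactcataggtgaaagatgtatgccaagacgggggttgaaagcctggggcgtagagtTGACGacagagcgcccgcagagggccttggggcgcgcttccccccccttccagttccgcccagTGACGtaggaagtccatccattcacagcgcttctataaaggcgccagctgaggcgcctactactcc
Btg2 (GRCm38.p6, chr1:134079156-134079405, minus strand): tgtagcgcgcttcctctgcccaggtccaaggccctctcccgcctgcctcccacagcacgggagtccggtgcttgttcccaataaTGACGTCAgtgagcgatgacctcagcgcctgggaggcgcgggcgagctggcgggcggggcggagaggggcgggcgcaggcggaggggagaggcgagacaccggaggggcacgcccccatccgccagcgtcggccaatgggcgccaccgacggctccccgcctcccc
Dusp1 (GRCm38.p6, chr17:26508473-26508722, minus strand): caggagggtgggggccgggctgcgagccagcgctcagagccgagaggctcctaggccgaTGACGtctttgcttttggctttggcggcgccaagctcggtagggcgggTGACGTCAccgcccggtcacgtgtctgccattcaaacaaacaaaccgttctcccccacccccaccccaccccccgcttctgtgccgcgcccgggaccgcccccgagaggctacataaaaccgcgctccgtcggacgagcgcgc
Nr4a3 (GRCm38.p6, chr4:48045055-48045304, plus strand): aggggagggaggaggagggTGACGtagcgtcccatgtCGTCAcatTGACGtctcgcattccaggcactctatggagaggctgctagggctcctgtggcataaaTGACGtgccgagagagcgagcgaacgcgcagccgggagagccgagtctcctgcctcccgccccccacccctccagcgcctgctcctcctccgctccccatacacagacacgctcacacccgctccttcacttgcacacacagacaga
Dusp5 (GRCm38.p6, chr19:53528895-53529144, plus strand): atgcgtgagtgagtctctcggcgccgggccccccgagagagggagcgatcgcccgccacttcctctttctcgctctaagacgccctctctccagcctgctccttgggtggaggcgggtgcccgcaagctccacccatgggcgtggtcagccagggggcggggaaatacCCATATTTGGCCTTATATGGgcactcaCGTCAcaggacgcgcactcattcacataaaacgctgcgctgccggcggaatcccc
In the *Fos* window the core began 129 and 66 bases before the start site. In the *Btg2* and *Dusp1* windows the full CRE began 166 and 143 bases before it. The window of *Dusp5* held a pair of adjacent CArG boxes, which began 82 and 72 bases before the start site.

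The libraries held 32754717 to 44630808 counts each, and all 41 members passed the filter of more than 1 CPM (counts scaled to a common library size) in at least 3 of the 15 libraries, as did 16171 genes in all. Counts of a member per library were 5 to 8690, with over 100 counts in every library for 35 members. Of the 41 members, 8 share exonic bases (0.332% to 52.6%) with a gene on the opposite strand, among them *Bdnf* (14.4%), *Dusp5* (22.1%), *Junb* (7.52%) and *Jund* (52.6%), and whether the counting used strand was not given in the sources used here. Markers of pyramidal and granule neurons summed to 6221 to 7756 CPM in every library, and none of the 8 was at 0. Some libraries of batch 2 also held markers of neighbouring tissue. All 9 markers of striatal medium spiny neurons and all 8 of choroid plexus epithelium were detected in every library, and their sums differed between libraries. Striatal markers summed to 1041 CPM in ApoE4 replicate 3, against 152 to 203 CPM in the other 14 libraries. Choroid plexus markers summed to 1973 CPM in ApoE4 replicate 1 and 1654 CPM in WT replicate 3 of batch 2, against at most 107 CPM elsewhere, and the same WT library had 418 CPM of thalamic and habenular markers, against at most 147 CPM elsewhere. In batch 1, annotated long noncoding genes took 2.65% to 2.88% of the counts in 4 libraries (DM replicate 1, APP-TKI replicates 1 and 2, and WT replicate 1) and 2.16% to 2.32% in the other 5.

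Per kilobase of exon, *Jund* had the highest level of the members in every group, and *Maff* and *Atf3* the lowest. *Jund* averaged 78.9 RPKM in DM, 76.3 RPKM in APP-TKI, 77.9 RPKM in WT mice of batch 1, 73.1 RPKM in ApoE4 and 73.5 RPKM in WT mice of batch 2 (n = 3 each). Group means were 56.3 to 66.2 RPKM for *Vgf*, 24.4 to 58.3 RPKM for *Arc*, 27.8 to 30.7 RPKM for *Jun* and 19.0 to 34.0 RPKM for *Egr1*, and the order of these genes differed between groups. *Fos* was far lower, at 2.61 RPKM in DM, 3.53 RPKM in APP-TKI, 3.49 RPKM in WT mice of batch 1, 5.37 RPKM in ApoE4 and 9.45 RPKM in WT mice of batch 2. *Maff* and *Atf3* had group means of 0.204 to 0.759 RPKM. Of the members whose comparisons are given below, *Klf4* and *Klf2* were also low, with group means of 0.304 to 3.09 RPKM.

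ApoE4 mice had less *Fos* RNA than WT mice of the same batch. At an unadjusted p under 0.05, 6 of the 26 fast members were lower, against 2.76% of all genes. *Fos* encodes the subunit that pairs with Jun proteins to form the transcription factor AP-1, and is a widely used marker of recent neuronal firing. It had 14.8, 11.3 and 11.8 CPM in the ApoE4 libraries, against 20.8, 24.9 and 21.0 CPM in the WT libraries of batch 2. The libraries did not overlap, and *Fos* RNA in ApoE4 mice was 0.569 of that in WT mice (log2 fold change of -0.81, standard error 0.12, 95% interval -1.10 to -0.53, adjusted p = 0.669, edgeR's quasi-likelihood test). By unadjusted p, *Fos* was number 2 of the 16171 genes tested, but its adjusted p did not pass the threshold of 0.1. It passed in edgeR with a robust likelihood ratio test (adjusted p = 3.97e-08), with the Wald test of DESeq2 (adjusted p = 6.79e-05) and without a filter on low counts (adjusted p = 0.0649, edgeR's quasi-likelihood test). Over all 16 alternatives the log2 fold change was -0.98 to -0.73 and the adjusted p 3.97e-08 to 0.997 in edgeR and DESeq2. Without ApoE4 replicate 3 and WT replicate 3, which held striatal and thalamic markers, the log2 fold change was -0.81, and without ApoE4 replicate 1 and WT replicate 3, which held choroid plexus markers, it was -0.98.

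**Figure D1:**
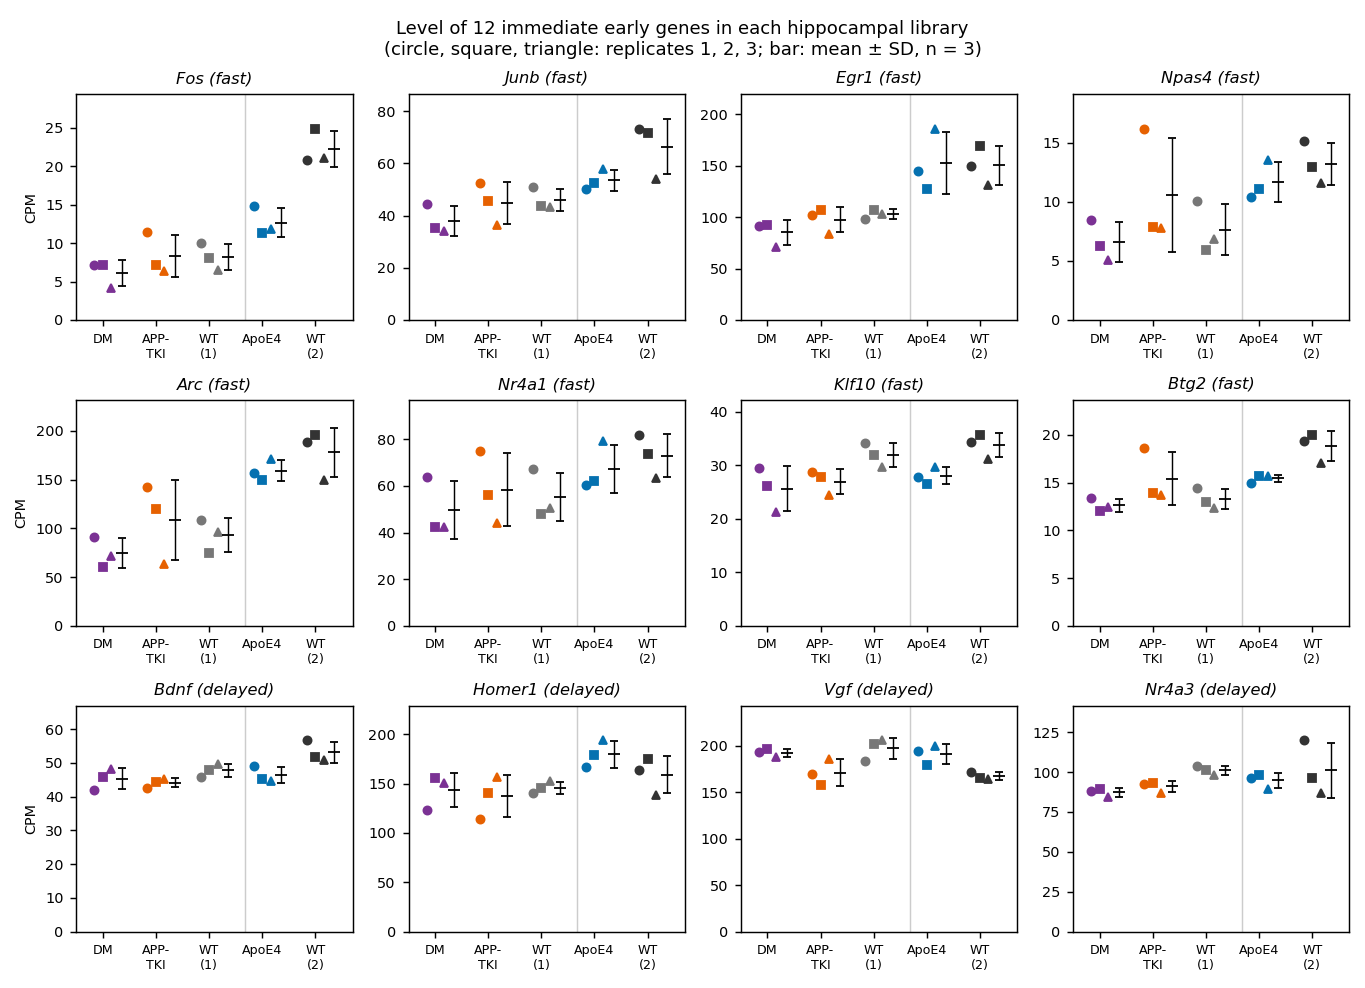
Level of 12 members in each of the 15 libraries, in CPM (linear axis from 0) by group, with replicates 1, 2 and 3 as circle, square and triangle and the mean ± SD (n = 3) as a bar beside them. WT (1) and WT (2) are the WT groups of batches 1 and 2, parted by the grey line. The 3 ApoE4 libraries sit at 11.3 to 14.8 CPM for *Fos*, all below the WT libraries of batch 2 at 20.8 to 24.9 CPM.

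Other fast members were lower in ApoE4 mice by smaller amounts. *Klf10*, a zinc finger repressor, had 27.9, 26.5 and 29.6 CPM in the ApoE4 libraries, against 34.4, 35.7 and 31.2 CPM in the WT libraries of batch 2. *Btg2*, an antiproliferative gene of the immediate early response, had 14.97, 15.6 and 15.7 CPM in the ApoE4 libraries, against 19.3, 20.0 and 17.0 CPM in the WT libraries of batch 2. *Ier2*, a small nuclear protein, averaged 3.86 ± 0.367 CPM in ApoE4 and 5.26 ± 0.485 CPM in WT mice (SD, n = 3 each), and *Dusp1*, a phosphatase of MAP kinases, 14.5 ± 0.363 CPM in ApoE4 and 17.3 ± 1.67 CPM in WT mice (SD, n = 3 each). None of these 4 had overlapping libraries. For *Klf10* this was a log2 fold change of -0.27, standard error 0.07, 95% interval -0.43 to -0.10, adjusted p = 0.761 (edgeR's quasi-likelihood test). For *Btg2* the fit gave a log2 fold change of -0.28, standard error 0.079, 95% interval -0.47 to -0.099, adjusted p = 0.761 (the same test of edgeR). *Ier2* and *Dusp1* had log2 fold changes of -0.45 and -0.26. *Junb*, a Jun protein of AP-1, had 49.97, 52.5 and 57.9 CPM in the ApoE4 libraries, against 73.2, 71.4 and 54.1 CPM in the WT libraries of batch 2. Its ApoE4 libraries overlapped the WT library of replicate 3, and its log2 fold change was -0.31 (95% interval -0.58 to -0.036), or -0.50 without the libraries with striatal or thalamic markers.

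Other fast members overlapped between the groups. *Arc*, which encodes a cytoskeletal protein that removes AMPA receptors from synapses, had 157, 149.7 and 171 CPM in the ApoE4 libraries, against 189, 196 and 149.6 CPM in the WT libraries of batch 2. *Npas4*, a transcription factor induced by calcium entry in neurons, had 10.4, 11.1 and 13.5 CPM in the ApoE4 libraries, against 15.1, 12.9 and 11.6 CPM in the WT libraries of batch 2. *Egr1*, a zinc finger factor used as a marker of plasticity, had 145, 127 and 186 CPM in the ApoE4 libraries, against 150.3, 169.5 and 132 CPM in the WT libraries of batch 2, and its highest value was in ApoE4 replicate 3, the library with striatal markers. Its log2 fold change was 0.02 in all libraries of the batch and -0.24 without ApoE4 replicate 3 and WT replicate 3, which held striatal and thalamic markers. *Nr4a1*, an orphan nuclear receptor, had 60.4, 62.2 and 79.1 CPM in the ApoE4 libraries, against 82.0, 73.5 and 63.5 CPM in the WT libraries of batch 2, again highest among ApoE4 libraries in replicate 3, with a log2 fold change of -0.12 in all libraries and -0.34 without that pair. *Egr3* had 116, 109 and 147 CPM in the ApoE4 libraries, against 109, 110.1 and 86.8 CPM in the WT libraries of batch 2. Its log2 fold change was 0.28 (95% interval -0.026 to 0.59), with the lowest value in the WT library that held thalamic markers, and it was 0.037 without that library and ApoE4 replicate 3. Without the same libraries, the median log2 fold change of the 26 fast members was -0.17, against -0.058 in all libraries of the batch. Within its group, ApoE4 replicate 3 had the highest mean of the fast members and WT replicate 3 the lowest. Leaving them out therefore widens the difference.

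Among the delayed members, *Vgf* and *Inhba* were higher in ApoE4 than in WT mice at an unadjusted p under 0.05, and *Bdnf* and *Dusp6* were lower. *Vgf*, the precursor of secreted neuropeptides, had 194, 179.6 and 199.8 CPM in the ApoE4 libraries, against 172, 166 and 165 CPM in the WT libraries of batch 2, without overlap (log2 fold change of 0.19, standard error 0.051, 95% interval 0.073 to 0.31, adjusted p = 0.761, edgeR's quasi-likelihood test). *Inhba*, a subunit of the secreted factor activin, had 12.2, 14.4 and 19.0 CPM in the ApoE4 libraries, against 9.02, 10.4 and 12.8 CPM in the WT libraries of batch 2. The groups overlapped, the highest value was in the library with striatal markers, and the log2 fold change was 0.50 (0.45 without the libraries with striatal or thalamic markers and 0.78 without those with choroid plexus markers). *Bdnf*, a neurotrophin that supports synapses, had 49.1, 45.2 and 44.7 CPM in the ApoE4 libraries, against 56.6, 51.9 and 50.7 CPM in the WT libraries of batch 2, without overlap (log2 fold change -0.20, 95% interval -0.34 to -0.049). *Dusp6*, a phosphatase of ERK kinases, averaged 50.8 ± 0.537 CPM in ApoE4 and 60.6 ± 8.99 CPM in WT mice (SD, n = 3 each), and its groups overlapped. *Homer1*, a scaffold of the postsynaptic density, had 167, 179 and 194 CPM in the ApoE4 libraries, against 164, 175 and 139 CPM in the WT libraries of batch 2. *Nptx2*, a pentraxin that gathers AMPA receptors, had 23.96, 27.4 and 26.4 CPM in the ApoE4 libraries, against 26.0, 22.9 and 38.4 CPM in the WT libraries of batch 2. Neither had a direction beyond the spread of its libraries.

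Of all 41 members, 0 were called at an adjusted p under 0.1 in ApoE4 mice, against 0% of all genes tested with edgeR's quasi-likelihood test. The robust likelihood ratio test called 2, *Fos* and *Junb* (0.773% of all genes), the Wald test of DESeq2 called *Fos* (0.297%), and *Fos* was called without a filter (0.0248%). With an unadjusted p under 0.05, 8 members were lower (6 fast and 2 delayed), against 2.76% of all genes, and 2 were higher, both delayed, against 3.23%. Libraries did not overlap for 6 members that were lower, against 6.79% of all genes, and for 1 that was higher, against 5.39%. Without the libraries with striatal or thalamic markers, 12 members were lower at an unadjusted p under 0.05, against 1.66% of all genes. Without those with choroid plexus markers, 9 were lower, against 1.94%. Both fits leave 2 libraries per group and were added after the data had been seen. WT replicate 3, left out of both, had the lowest mean of the fast members among the WT libraries of batch 2. ApoE4 replicate 3, left out of the first, had the highest among the ApoE4 libraries. The first fit thus widens the difference in the fast members by its choice of libraries. With a library left out in turn, 4 to 9 were lower. There were 4 without ApoE4 replicate 2 (3.24% of all genes), 5 without WT replicate 1 (3.46%) or WT replicate 2 (1.86%), and 9 without WT replicate 3 (2.29%). The median log2 fold change was -0.058 in the 26 fast and -0.062 in the 14 delayed members, beside -0.011 over all genes tested. It was -0.17 in a core of 12 fast genes (*Fos*, *Fosb*, *Junb*, *Egr1*, *Egr2*, *Egr4*, *Arc*, *Npas4*, *Nr4a1*, *Dusp1*, *Ier2* and *Btg2*). This core was picked with earlier results of these data known, so its median gives no support beyond that of the 26.

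Of 6 markers of anterior pituitary, 3 passed the filter. All 3 were lower in ApoE4 than in WT mice without overlap, against 6.79% of all genes. The 6 summed to 1.03 to 3.15 CPM in ApoE4 and 8.08 to 23.4 CPM in WT libraries. *Cga* and *Tshb* were at 0 in at least 1 ApoE4 library, and *Lhb* and *Tshb* in at least 1 WT library. The list holds *Prl* and *Gh*, for prolactin and growth hormone. The paper excluded such genes because they change with the estrus cycle in the mouse brain. The part of cycle stage in these values was not tested. The 8 ependymal markers, none at 0, summed to 53.9 to 94.97 CPM in ApoE4 and 31.3 to 71.2 CPM in WT libraries, and all 8 had positive log2 fold changes. The 8 fibroblast markers, none at 0, summed to 106 to 145 CPM in ApoE4 and 125 to 169 CPM in WT libraries, and all 8 had negative ones. In these last lists 0 markers had an unadjusted p under 0.05. Their part in the values of *Fos* and the other members was not tested.

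**Figure D2:**
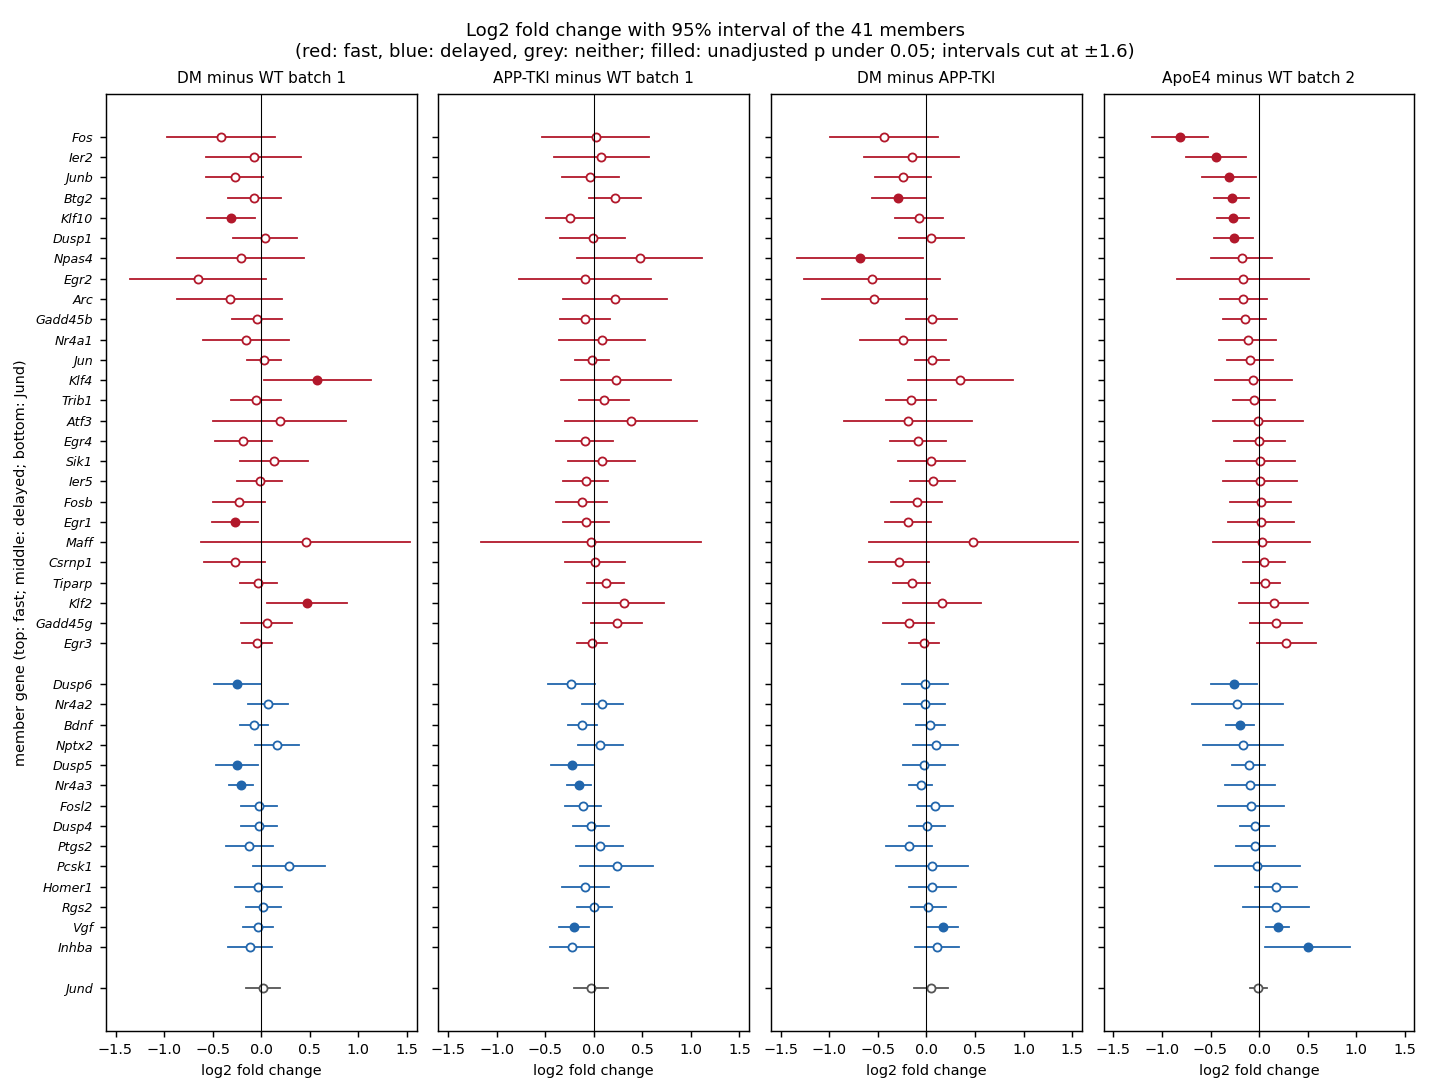
Log2 fold change (x axis) of each of the 41 members in 4 comparisons, with its 95% interval, fast members above, delayed members in the middle and *Jund* at the bottom. Filled points had an unadjusted p under 0.05. In ApoE4 minus WT mice of batch 2, *Fos* lies at -0.81 with an interval of -1.10 to -0.53.

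In DM mice, *Nr4a3*, *Klf10*, *Dusp5*, *Egr1* and *Dusp6* were below WT mice of batch 1 at an unadjusted p under 0.05, and *Klf2* and *Klf4* were above. *Nr4a3*, an orphan nuclear receptor that acts as a transcription factor without a known ligand, had 88.4, 89.2 and 84.2 CPM in the DM libraries, 92.5, 93.4 and 86.9 CPM in the APP-TKI libraries and 104, 101 and 98.0 CPM in the WT libraries of batch 1. All 6 libraries with the mutated *App* were below all 3 WT libraries, and the difference of DM from WT mice was a log2 fold change of -0.21, standard error 0.056, 95% interval -0.33 to -0.089, adjusted p = 0.535 (edgeR's quasi-likelihood test). Over its 19 alternatives the adjusted p was 0.0689 to 1 in edgeR and DESeq2, and it passed only in DESeq2. *Klf10* had 29.5, 26.1 and 21.2 CPM in the DM libraries, 28.8, 27.7 and 24.3 CPM in the APP-TKI libraries and 34.1, 31.8 and 29.6 CPM in the WT libraries of batch 1. The groups were again apart, and the difference was a log2 fold change of -0.31, standard error 0.11, 95% interval -0.56 to -0.067, adjusted p = 0.9 (edgeR's quasi-likelihood test). *Dusp5*, which encodes a nuclear phosphatase of ERK kinases, had 20.2, 19.5 and 17.9 CPM in the DM libraries, 19.9, 21.8 and 17.0 CPM in the APP-TKI libraries and 24.4, 21.9 and 22.2 CPM in the WT libraries of batch 1. Its difference of DM from WT mice was a log2 fold change of -0.25, standard error 0.098, 95% interval -0.46 to -0.034, adjusted p = 0.984 (edgeR's quasi-likelihood test).

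*Klf2* encodes a transcription factor that is also abundant in endothelial cells of blood vessels. It had 2.57, 2.47 and 2.66 CPM in the DM libraries, 2.46, 2.49 and 1.92 CPM in the APP-TKI libraries and 1.57, 2.10 and 1.88 CPM in the WT libraries of batch 1. The DM libraries were above the WT libraries (log2 fold change of 0.47, standard error 0.19, 95% interval 0.062 to 0.88, adjusted p = 0.989, edgeR's quasi-likelihood test). *Klf4*, its relative, averaged 1.38 ± 0.232 CPM in DM, 1.08 ± 0.205 CPM in APP-TKI and 0.927 ± 0.133 CPM in WT mice (SD, n = 3 each), with a log2 fold change of DM over WT mice of 0.58. The 14 markers of endothelial cells, none at 0 in any library, summed to 101 to 132 CPM in DM, 72.4 to 84.7 CPM in APP-TKI and 81.4 to 90.2 CPM in WT mice. Of the 14, 8 were higher in DM than in WT libraries at an unadjusted p under 0.05 (3.69% of all genes). In DM against APP-TKI libraries 11 were (2.83%). The list holds *Pecam1*, *Cdh5*, *Flt1*, *Vwf* and *Ptprb*, which the paper reported as higher in DM than in APP-TKI mice. The paper used these same libraries, so the count is not independent of its result. The 8 ependymal markers, none at 0, summed to 29.0 to 37.9 CPM in DM, 13.2 to 31.0 CPM in APP-TKI and 15.6 to 20.8 CPM in WT mice. All 8 were above WT in DM mice without overlap, against 7.29% of all genes. The 8 fibroblast markers, none at 0, summed to 159 to 173 CPM in DM, 119 to 177 CPM in APP-TKI and 127 to 157 CPM in WT mice. Of these, 5 were above WT in DM mice without overlap, against the same 7.29%. The part of these cells in the values of *Klf2*, *Klf4* and the other members in DM mice was not tested.

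Of the markers of neuronal firing, *Egr1* was below WT in DM mice without overlap. It had 91.9, 92.8 and 71.2 CPM in the DM libraries, 102, 107 and 83.8 CPM in the APP-TKI libraries and 98.2, 107 and 104 CPM in the WT libraries of batch 1. The log2 fold change was -0.27 (95% interval -0.51 to -0.034). *Fos* had 7.18, 7.09 and 4.15 CPM in the DM libraries, 11.46, 7.15 and 6.33 CPM in the APP-TKI libraries and 9.99, 8.11 and 6.53 CPM in the WT libraries of batch 1, and its log2 fold change in DM against WT mice was -0.42 (95% interval -0.97 to 0.14). For *Junb* the values were 44.3, 35.2 and 34.2 CPM in the DM libraries, 52.3, 45.7 and 36.3 CPM in the APP-TKI libraries and 50.8, 43.5 and 43.3 CPM in the WT libraries of batch 1. Its log2 fold change of DM against WT mice was -0.27 (95% interval -0.56 to 0.016), and in *Fos* and *Junb* the libraries overlapped. *Nr4a1* had 63.9, 42.2 and 42.4 CPM in the DM libraries, 75.0, 56.2 and 44.2 CPM in the APP-TKI libraries and 67.3, 48.0 and 50.5 CPM in the WT libraries of batch 1. In *Nr4a1*, as in *Fos* and *Junb*, replicate 1 was the highest library of each group, and the DM library was below the WT library of the same number in 3 of 3 pairs. The labels do not say that libraries of the same number belong together. In a fit blocked by number, the log2 fold changes of DM against WT mice were -0.43 for *Fos*, -0.28 for *Junb* and -0.17 for *Nr4a1*. *Fos*, *Junb* and *Egr2* then had an unadjusted p under 0.05 beside the 5 members named first, and none of these 8 was called.

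Counted over the members, 0 of 41 were called in DM against WT mice at an adjusted p under 0.1 (0.0124% of all genes, edgeR's quasi-likelihood test). DESeq2 called *Nr4a3* (0.309% of all genes), and *Arc* was called without a filter on low counts (0.482%). At an unadjusted p under 0.05, 5 members were lower, against 0.866% of all genes, and 2 were higher, against 3.69%. Without overlap of the libraries, 6 were lower, against 3.14% of all genes, and 2 higher, against 7.29%. The 6 were *Egr1*, *Nr4a3*, *Dusp5*, *Dusp6*, *Klf10* and *Inhba*. DM and WT libraries of the same number deviated together in these data, though the labels do not pair them. A fit blocked by replicate number gave 8 members lower at an unadjusted p under 0.05 (1.34% of all genes), and 0 were called. As the pairing was seen in the same data, the rise from 5 to 8 adds no support. The median log2 fold change was -0.061 in the fast and -0.031 in the delayed members, beside 0.012 over all genes tested. All 4 Egr members had negative values in DM against WT mice (-0.27, -0.65, -0.043 and -0.18 for *Egr1* to *Egr4*), but of these only *Egr1* had an unadjusted p under 0.05. Leaving out 1 library moved the count of lower members to 1 without DM replicate 3 (0.89% of all genes), 2 without WT replicate 1 (0.779%) or 3 without WT replicate 3 (0.6%), and at most to 7, without DM replicate 1 (1.92%) or APP-TKI replicate 3 (1.06%).

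In APP-TKI mice the members that differed from WT mice at an unadjusted p under 0.05 were 3 delayed genes, all lower. *Vgf* had 193, 196 and 188 CPM in the DM libraries, 169, 157 and 186 CPM in the APP-TKI libraries and 184, 201 and 206 CPM in the WT libraries of batch 1. Its difference was a log2 fold change of -0.20, standard error 0.069, 95% interval -0.36 to -0.052, adjusted p = 1 (edgeR's quasi-likelihood test), and APP-TKI replicate 3 was above WT replicate 1. For *Nr4a3* the APP-TKI libraries lay below the WT libraries (log2 fold change of -0.15, standard error 0.056, 95% interval -0.27 to -0.03, adjusted p = 1, edgeR's quasi-likelihood test), and for *Dusp5* likewise (log2 fold change of -0.22, standard error 0.098, 95% interval -0.44 to -0.0084, adjusted p = 1, edgeR's quasi-likelihood test). These 2 genes were lower in DM mice against the same 3 WT libraries, so the comparisons are not independent. *Inhba* had 8.14, 9.31 and 8.91 CPM in the DM libraries, 7.62, 7.85 and 9.001 CPM in the APP-TKI libraries and 9.64, 9.43 and 9.497 CPM in the WT libraries of batch 1, with all APP-TKI libraries below all WT libraries (log2 fold change of -0.22, standard error 0.10, 95% interval -0.45 to 0.0041, adjusted p = 1, edgeR's quasi-likelihood test). *Bdnf* had 42.1, 45.8 and 48.1 CPM in the DM libraries, 42.6, 44.5 and 45.2 CPM in the APP-TKI libraries and 45.8, 47.8 and 49.8 CPM in the WT libraries of batch 1. Its 3 APP-TKI libraries were all below the WT libraries, by -0.12 on the log2 scale (95% interval -0.26 to 0.029).

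In this comparison 0 of 41 members were called at an adjusted p under 0.1 (0.00618% of all genes, edgeR's quasi-likelihood test). With an unadjusted p under 0.05, 3 were lower (1.37% of all genes) and 0 higher (2.19%). Without overlap, 5 were lower (3.56% of all genes), namely *Nr4a3*, *Dusp5*, *Bdnf*, *Klf10* and *Inhba*, and 0 higher (4.71%). With a library left out in turn, 1 (without WT replicate 1, 1.64% of all genes) to 4 (without DM replicate 1, 1.63%, or DM replicate 3, 1.26%) were lower. Likewise 0 to 3 were higher, namely 1 when APP-TKI replicate 2 was out (2.41%), 2 when WT replicate 1 was out (3.33%) and 3 when APP-TKI replicate 3 was out (3.16%). Other tools likewise called 0. The median log2 fold change was 0.013 in the fast members, 0.013 over all genes tested and -0.097 in the delayed members. *Homer1* and *Nptx2* showed no direction. *Homer1* had 123, 155 and 151 CPM in the DM libraries, 114, 141 and 157 CPM in the APP-TKI libraries and 140.2, 145 and 152 CPM in the WT libraries of batch 1, and *Nptx2* had 23.3, 23.1 and 21.7 CPM in the DM libraries, 24.6, 20.7 and 18.5 CPM in the APP-TKI libraries and 18.5, 20.3 and 22.1 CPM in the WT libraries of batch 1.

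Within batch 1 the fast members differed between libraries of the same group. Each library was scored by the mean log2 CPM of its fast members, centred on the batch. The score was 0.087, -0.077 and -0.19 in DM, 0.21, 0.084 and -0.12 in APP-TKI, and 0.038, -0.0054 and -0.031 in WT replicates 1, 2 and 3. The 4 libraries with the higher share of counts in long noncoding genes had fast scores of 0.038 to 0.21, and the other 5 had scores of -0.19 to -0.0054. For the delayed members the order was the opposite, with scores of -0.079 to -0.0011 in those 4 libraries and 0.012 to 0.077 in the other 5. The same 4 libraries thus held the highest fast scores and the lowest delayed scores, in all 3 groups. APP-TKI replicate 1 had the highest value of the batch for 11 of the 26 fast members, and DM replicate 3 the lowest for 9.

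**Figure D3:**
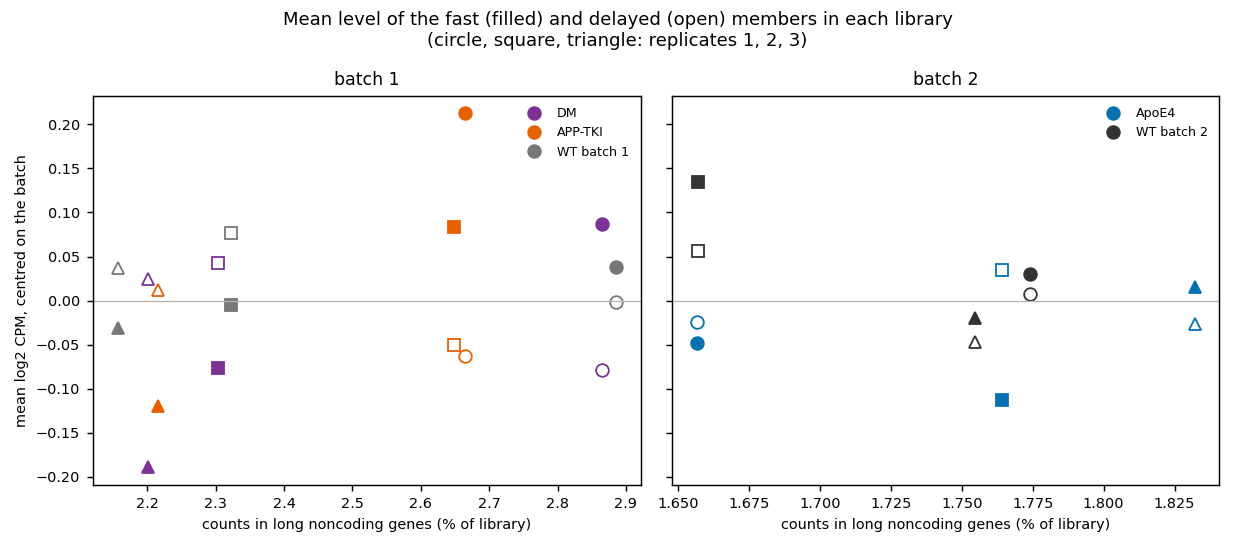
Mean log2 CPM of the fast (filled) and delayed (open) members in each library, centred on its batch, against the share of counts in long noncoding genes (percent), batch 1 left and batch 2 right. In batch 1 the 4 libraries at 2.65% to 2.88% have fast scores of 0.038 to 0.21, above those of the 5 libraries at 2.16% to 2.32%.

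Values of batch 1 were recomputed without these libraries. Without the 4 libraries, which leaves DM replicates 2 and 3, APP-TKI replicate 3 and WT replicates 2 and 3, 5 members were called lower in DM than in WT mice, namely *Junb* (-0.32), *Egr1* (-0.36), *Arc* (-0.37), *Dusp6* (-0.27) and *Klf10* (-0.38, all log2 fold changes), against 0.81% of all genes. At an unadjusted p under 0.05, 11 were then lower, against 3.61% of all genes. In the lone APP-TKI library left, assumed to vary like the others, 4 members were called, namely *Arc* (-0.44), *Dusp6* (-0.54) and *Jund* (-0.21) lower and *Pcsk1* (0.46) higher than in WT mice, against 2.11% of all genes. There, 12 were lower at an unadjusted p under 0.05, against 6.87% of all genes. These fits were added after the data had been seen. Some fast members had a wide spread between replicates. Relative to genes of like level, the biological variation of *Arc* in batch 1 lay at percentile 99.8 of all genes, that of *Nr4a1* at 99.4, of *Npas4* at 99.0 and of *Fos* at 97.3. Of the 26 fast members, 7 were among the 10% most variable genes in batch 1 and 8 in batch 2, and of the 14 delayed members 2 and 7.

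The addition of *APOE4* to the mutated *App* background was given by DM against APP-TKI mice, where the 4 members with the smallest p were *Npas4*, *Arc* and *Btg2*, all with negative log2 fold changes, and *Vgf*, with a positive one. *Vgf* was above APP-TKI in all 3 DM libraries (log2 fold change of 0.17, standard error 0.069, 95% interval 0.018 to 0.32, adjusted p = 0.987, edgeR's quasi-likelihood test). *Btg2* had 13.4, 11.998 and 12.4 CPM in the DM libraries, 18.7, 13.9 and 13.7 CPM in the APP-TKI libraries and 14.4, 12.9 and 12.4 CPM in the WT libraries of batch 1, with all DM libraries below all APP-TKI libraries (log2 fold change of -0.29, standard error 0.12, 95% interval -0.56 to -0.02, adjusted p = 0.987, edgeR's quasi-likelihood test). *Npas4* had 8.42, 6.26 and 5.04 CPM in the DM libraries, 16.2, 7.85 and 7.78 CPM in the APP-TKI libraries and 10.1, 5.95 and 6.87 CPM in the WT libraries of batch 1, where DM replicate 1 overlapped the APP-TKI libraries (log2 fold change of -0.69, standard error 0.30, 95% interval -1.33 to -0.039, adjusted p = 0.987, edgeR's quasi-likelihood test). *Arc* had 91.3, 60.8 and 71.5 CPM in the DM libraries, 142, 119 and 63.2 CPM in the APP-TKI libraries and 109, 74.3 and 96.4 CPM in the WT libraries of batch 1, and here too the groups overlapped (log2 fold change of -0.54, standard error 0.25, 95% interval -1.08 to 0.001, adjusted p = 0.987, edgeR's quasi-likelihood test). The values of *Arc* and *Npas4* rested on APP-TKI replicate 1, and without it the log2 fold changes were -0.25 for *Npas4*, -0.29 for *Arc* and -0.13 for *Btg2*. Without the 4 libraries rich in long noncoding RNA, *Arc* was 0.065 and *Vgf* 0.046 on the log2 scale.

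None of the 41 members was called between DM and APP-TKI mice (0 of 41, against 0% of all genes at an adjusted p under 0.1, edgeR's quasi-likelihood test). Without a filter on low counts, *Arc* and *Npas4* were called (0.284% of all genes), with an adjusted p over all alternatives of 2.12e-06 to 1 for *Arc* and 0.00174 to 1 for *Npas4* in edgeR and DESeq2. With an unadjusted p under 0.05, 2 members were lower (0.946% of all genes) and 1 higher (2.83%). Libraries did not overlap for 3 lower members, *Btg2*, *Csrnp1* and *Tiparp* (2.9% of all genes), and for 1 higher member, *Vgf* (5.03%). The median log2 fold change was -0.15 in the fast and 0.03 in the delayed members, beside 0.0012 over all genes, and -0.041 in the fast members without APP-TKI replicate 1. With a library left out in turn, the count of lower members was 0 without DM replicate 2 (0.631% of all genes) or DM replicate 3 (0.482%), and 1 without APP-TKI replicate 1 (0.736%). It was 4 without APP-TKI replicate 2 (0.489%) or WT replicate 1 (1.17%), and 7 without DM replicate 1 (4.48%) or APP-TKI replicate 3 (3.36%).

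The effect of *APOE4* on the mutated and on the unaltered *App* background was set side by side, over libraries that are not shared. The mutated background was measured in batch 1 and the unaltered one in batch 2, so background and batch cannot be told apart. *Vgf* was higher and *Btg2* lower without overlap in both DM against APP-TKI and ApoE4 against WT mice, that is 1 of 41 members in each direction (2.44%), against 0.124% of all genes higher in both and 0.161% lower in both. In opposite directions there were 0 members, against 0.649% of all genes. For *Vgf* the log2 fold changes were 0.17 and 0.19, and for *Btg2* they were -0.29 and -0.28, on the mutated and the unaltered background. On the mutated background, *Btg2* was -0.13 without APP-TKI replicate 1. There *Vgf* was 0.046 without the 4 libraries rich in long noncoding RNA. The DM means of 192 CPM for *Vgf* and 12.6 CPM for *Btg2* lay near those of WT mice of batch 1 (197 and 13.2 CPM). The difference between both effects was tested in a fit of all 15 libraries. A shift of a whole batch cancels in it only where it is equal on the log2 scale in both groups of that batch. *Bdnf* had the smallest p (difference of log2 fold changes of 0.24, standard error 0.091, 95% interval 0.043 to 0.43, adjusted p = 0.705, edgeR's quasi-likelihood test), with 0.041 for DM against APP-TKI and -0.20 for ApoE4 against WT mice. *Gadd45g*, a stress gene tied to DNA demethylation, followed (difference of log2 fold changes of -0.36, standard error 0.17, 95% interval -0.73 to 0.0092, adjusted p = 0.723, edgeR's quasi-likelihood test). It had 12.7, 10.7 and 10.1 CPM in the DM libraries, 14.3, 12.2 and 11.501 CPM in the APP-TKI libraries and 11.8, 9.87 and 10.6 CPM in the WT libraries of batch 1, and 19.4, 19.0 and 19.6 CPM in the ApoE4 libraries, against 15.4, 15.4 and 20.4 CPM in the WT libraries of batch 2, where WT replicate 3 stood above the other WT libraries.

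*Egr3*, a zinc finger factor, came next in this test (difference of log2 fold changes of -0.30, standard error 0.15, 95% interval -0.63 to 0.021, adjusted p = 0.723, edgeR's quasi-likelihood test). Its values in batch 1 were 79.9, 94.2 and 89.4 CPM in the DM libraries, 87.3, 92.6 and 87.6 CPM in the APP-TKI libraries and 86.5, 88.1 and 96.8 CPM in the WT libraries of batch 1. Without the libraries with striatal or thalamic markers the difference was -0.059 on the log2 scale. *Tiparp*, which encodes an ADP-ribosyltransferase, came after it (difference of log2 fold changes of -0.21, standard error 0.11, 95% interval -0.45 to 0.019, adjusted p = 0.726, edgeR's quasi-likelihood test). It had 18.2, 17.6 and 19.0 CPM in the DM libraries, 19.4, 20.7 and 20.7 CPM in the APP-TKI libraries and 19.8, 16.4 and 19.7 CPM in the WT libraries of batch 1. In batch 2 it had 27.8, 26.7 and 29.1 CPM in the ApoE4 libraries, against 25.45, 28.6 and 25.9 CPM in the WT libraries of batch 2. For *Fos* the difference was 0.38 (95% interval -0.30 to 1.07), an interval that holds 0. In this comparison 0 of 41 members were called (0% of all genes, edgeR's quasi-likelihood test), 1 with no filter (*Arc*, 1.08% of all genes), and at an unadjusted p under 0.05 there was 1 higher (4.06%) and 0 lower (2.79%). With a library left out in turn, 0 to 4 were higher, with 4 without APP-TKI replicate 1 (4.5% of all genes), and 0 to 2 were lower, with 2 without APP-TKI replicate 3 (4.96%), ApoE4 replicate 1 (3.07%), or WT replicate 2 (2.18%) or 3 (3.13%) of batch 2.

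**Figure D4:**
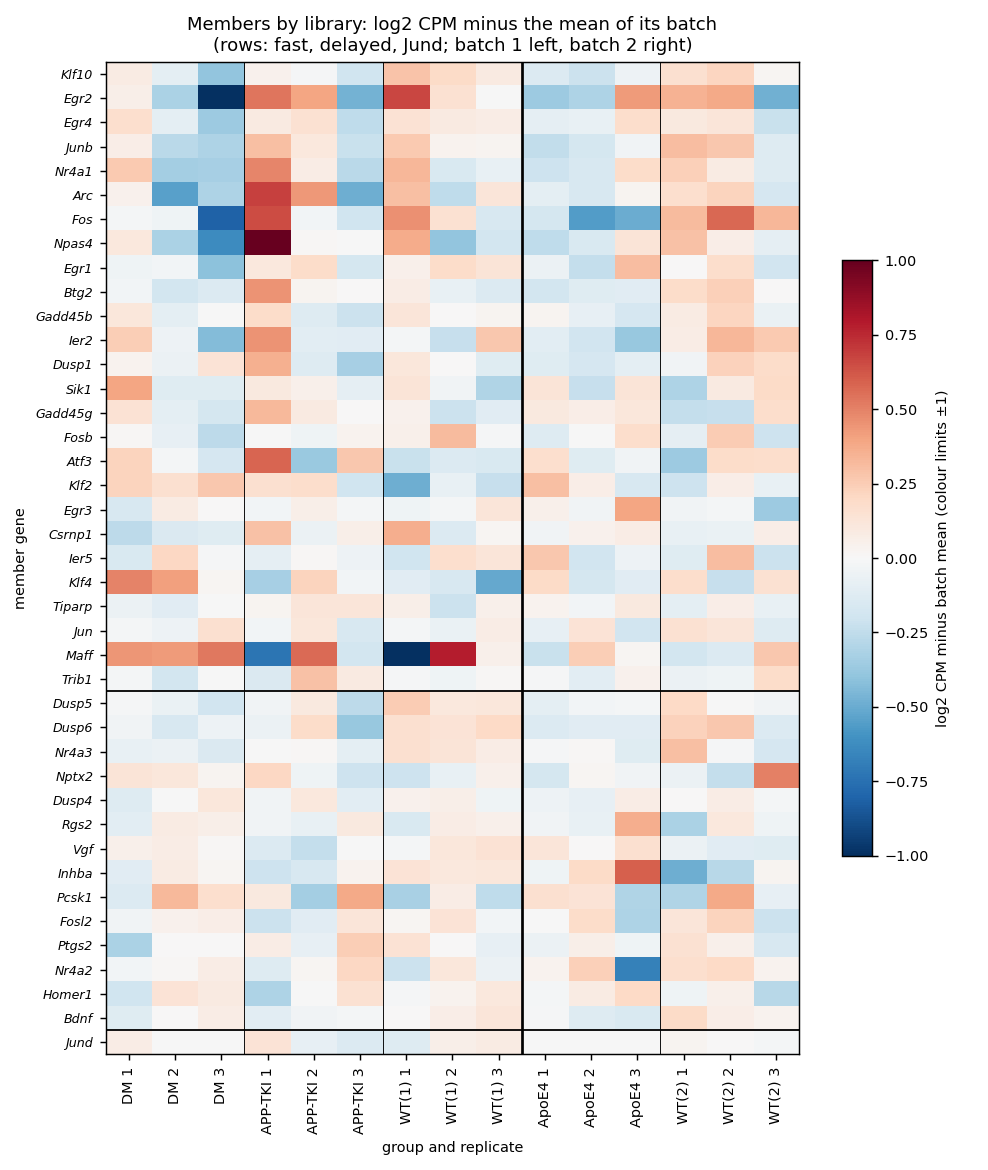
Log2 CPM of each of the 41 members (rows: fast, delayed, *Jund*) in each library (columns), minus the mean of its batch, batch 1 left and batch 2 right, with red above and blue below the batch mean. APP-TKI replicate 1 is the reddest column among the fast genes of batch 1, where it holds the highest value of 11 of the 26, and DM replicate 3 is the bluest, with the lowest value of 9.

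The remaining members are given by role. Of the AP-1 family, *Fosb*, a Fos protein whose splice form accumulates with repeated activity, averaged 6.96 ± 0.669 CPM in DM, 7.47 ± 0.2 CPM in APP-TKI and 8.16 ± 1.01 CPM in WT mice of batch 1, and 16.7 ± 1.78 CPM in ApoE4 and 16.5 ± 2.82 CPM in WT mice of batch 2 (SD, n = 3 each). *Fosl2*, a slower Fos protein, averaged 56.3 ± 2.07 CPM in DM, 53.0 ± 6.49 CPM in APP-TKI and 57.1 ± 3.46 CPM in WT mice of batch 1, and 62.4 ± 10.4 CPM in ApoE4 and 66.1 ± 10.1 CPM in WT mice of batch 2. *Jun*, the main partner of Fos, averaged 92.0 ± 7.40 CPM in DM, 88.6 ± 8.24 CPM in APP-TKI and 89.8 ± 4.49 CPM in WT mice of batch 1, and 91.9 ± 10.9 CPM in ApoE4 and 97.8 ± 10.1 CPM in WT mice of batch 2. None of the 3 had an unadjusted p under 0.05 in any comparison. *Jund*, made steadily in resting cells, averaged 132 ± 4.196 CPM in DM, 127 ± 13.3 CPM in APP-TKI and 130.001 ± 10.4 CPM in WT mice of batch 1, and 122 ± 0.274 CPM in ApoE4 and 123 ± 1.94 CPM in WT mice of batch 2. Its exons overlap an opposite-strand gene over 52.6% of their bases. *Atf3*, a stress-induced partner of AP-1, averaged 0.654 ± 0.0906 CPM in DM, 0.748 ± 0.236 CPM in APP-TKI and 0.574 ± 0.0175 CPM in WT mice of batch 1, and 1.62 ± 0.168 CPM in ApoE4 and 1.63 ± 0.33 CPM in WT mice of batch 2, and *Maff*, a small Maf protein, averaged 0.74 ± 0.0291 CPM in DM, 0.529 ± 0.239 CPM in APP-TKI and 0.541 ± 0.39 CPM in WT mice of batch 1, and 1.14 ± 0.183 CPM in ApoE4 and 1.12 ± 0.203 CPM in WT mice of batch 2. These 2 genes had the fewest counts of the members.

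Of the other transcription factors, *Egr2* averaged 1.53 ± 0.538 CPM in DM, 2.28 ± 0.759 CPM in APP-TKI and 2.42 ± 0.611 CPM in WT mice of batch 1, and 4.98 ± 1.62 CPM in ApoE4 and 5.60 ± 1.68 CPM in WT mice of batch 2. *Egr4* averaged 19.4 ± 3.55 CPM in DM, 20.6 ± 3.02 CPM in APP-TKI and 22.0 ± 0.584 CPM in WT mice of batch 1, and 34.4 ± 3.64 CPM in ApoE4 and 34.3 ± 4.41 CPM in WT mice of batch 2. Both zinc finger factors bind the same GC-rich motif as *Egr1*. *Nr4a2*, the nuclear receptor needed by dopamine neurons, averaged 62.3 ± 2.15 CPM in DM, 63.1 ± 7.36 CPM in APP-TKI and 59.3 ± 6.82 CPM in WT mice of batch 1, and 53.3 ± 16.1 CPM in ApoE4 and 62.1 ± 3.74 CPM in WT mice of batch 2. *Csrnp1* averaged 6.85 ± 0.345 CPM in DM, 8.32 ± 1.04 CPM in APP-TKI and 8.27 ± 1.499 CPM in WT mice of batch 1, and 8.49 ± 0.324 CPM in ApoE4 and 8.19 ± 0.457 CPM in WT mice of batch 2, and *Ier5* averaged 44.6 ± 5.63 CPM in DM, 42.6 ± 1.46 CPM in APP-TKI and 45.1 ± 6.02 CPM in WT mice of batch 1, and 48.3 ± 8.09 CPM in ApoE4 and 47.8 ± 9.76 CPM in WT mice of batch 2. Both are nuclear proteins of the immediate early response. In batch 1, *Ier2* averaged 3.10 ± 0.717 CPM in DM, 3.45 ± 0.817 CPM in APP-TKI and 3.27 ± 0.572 CPM in WT mice. In batch 2, *Klf4* averaged 3.24 ± 0.453 CPM in ApoE4 and 3.38 ± 0.509 CPM in WT mice, and *Klf2* had 6.64, 5.65 and 4.83 CPM in the ApoE4 libraries, against 4.67, 5.64 and 5.13 CPM in the WT libraries of batch 2. Both overlapped between the groups, as did *Nr4a3*, which had 96.4, 98.3 and 89.5 CPM in the ApoE4 libraries, against 119.8, 96.4 and 86.7 CPM in the WT libraries of batch 2.

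Of the brakes on signalling, *Dusp1* averaged 12.4 ± 0.84 CPM in DM, 12.02 ± 3.05 CPM in APP-TKI and 12.1 ± 0.989 CPM in WT mice of batch 1 (SD, n = 3 each), and *Dusp6* averaged 50.7 ± 2.44 CPM in DM, 51.3 ± 9.83 CPM in APP-TKI and 60.1 ± 1.21 CPM in WT mice of batch 1. *Dusp4*, a nuclear MAP kinase phosphatase, averaged 20.6 ± 1.72 CPM in DM, 20.5 ± 1.54 CPM in APP-TKI and 20.9 ± 0.766 CPM in WT mice of batch 1, and 24.02 ± 1.40 CPM in ApoE4 and 24.7 ± 0.859 CPM in WT mice of batch 2. *Dusp5* had 26.7, 28.0 and 28.2 CPM in the ApoE4 libraries, against 32.8, 28.5 and 28.0 CPM in the WT libraries of batch 2, with overlap between the groups. In batch 1, *Dusp5* and *Dusp6* were the members of this family with an unadjusted p under 0.05 in a comparison. *Sik1*, a kinase that keeps the CREB coactivators out of the nucleus, averaged 8.4001 ± 1.82 CPM in DM, 8.12 ± 0.55 CPM in APP-TKI and 7.68 ± 1.12 CPM in WT mice of batch 1, and 16.4 ± 2.25 CPM in ApoE4 and 16.3 ± 2.87 CPM in WT mice of batch 2. *Trib1*, a pseudokinase, averaged 9.53 ± 0.652 CPM in DM, 10.6 ± 1.61 CPM in APP-TKI and 9.89 ± 0.199 CPM in WT mice of batch 1, and 13.1 ± 0.677 CPM in ApoE4 and 13.6 ± 1.31 CPM in WT mice of batch 2. In batch 2 the ApoE4 and WT means of both lay within 1 SD of each other. *Rgs2*, which speeds the shut-off of G proteins, averaged 37.2 ± 2.57 CPM in DM, 36.7 ± 2.34 CPM in APP-TKI and 36.7 ± 3.06 CPM in WT mice of batch 1, and 46.5 ± 8.17 CPM in ApoE4 and 41.2 ± 5.97 CPM in WT mice of batch 2. *Gadd45b*, the relative of *Gadd45g*, averaged 9.61 ± 0.699 CPM in DM, 9.27 ± 1.39 CPM in APP-TKI and 9.88 ± 0.431 CPM in WT mice of batch 1, and 14.9 ± 1.01 CPM in ApoE4 and 16.5 ± 1.604 CPM in WT mice of batch 2. *Sik1*, *Trib1*, *Rgs2* and *Gadd45b* had no unadjusted p under 0.05 in any comparison. Of the synaptic and secreted effectors, *Ptgs2*, which encodes the cyclooxygenase COX-2, averaged 23.97 ± 2.98 CPM in DM, 27.1 ± 3.13 CPM in APP-TKI and 26.1 ± 2.09 CPM in WT mice of batch 1, and 25.4 ± 1.12 CPM in ApoE4 and 26.1 ± 2.83 CPM in WT mice of batch 2. *Pcsk1*, a convertase that cuts propeptides such as that of *Bdnf* and *Vgf*, averaged 38.4 ± 6.08 CPM in DM, 36.9 ± 8.98 CPM in APP-TKI and 31.4 ± 4.78 CPM in WT mice of batch 1, and 36.6 ± 6.19 CPM in ApoE4 and 37.0 ± 9.18 CPM in WT mice of batch 2. The spread of *Pcsk1* within a group was wide in both batches (percentile 97.8 of all genes in batch 1 and 97.1 in batch 2).

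Genes that carry the signal to the members were also examined. Of 6 receptors and channels, 18 kinases and phosphatases and 19 transcription factors and coactivators (of which 18 were tested), 0 were called in any of the 5 comparisons (edgeR's quasi-likelihood test). With an unadjusted p under 0.05, 4 were higher (3.23% of all genes) and 0 lower (2.76%) in ApoE4 mice (against WT mice), namely *Mrtfa*, a coactivator of SRF (0.33), *Elk4*, an SRF partner (0.22), *Rps6ka2*, a kinase of CREB (0.29), and *Ntrk2*, the receptor of BDNF (0.14, all log2 fold changes). In DM against WT mice, *Grin2b*, a subunit of the NMDA receptor, was lower (-0.13) and *Mapk3*, the kinase ERK1, was higher (0.13), and in APP-TKI against WT mice *Camkk2*, a calcium-dependent kinase, was higher (0.14), at an unadjusted p under 0.05. Over all genes these shares were 3.69% higher and 0.866% lower in DM, and 2.19% higher and 1.37% lower in APP-TKI, against WT mice. A list of 40 further activity-induced genes, of which 39 were tested, had 0 called, and at an unadjusted p under 0.05 had 2 higher and 2 lower in ApoE4 against WT mice, 1 higher and 2 lower in DM against WT mice, and 3 higher and 2 lower in APP-TKI against WT mice. In ApoE4 mice these included *Cebpb*, a transcription factor (-0.42), and *Sgk1*, a kinase induced by glucocorticoids (0.45). Libraries of 8 of the 39 lay lower without overlap in ApoE4 than in WT mice (6.79% of all genes), and of 2 higher (5.39%). Of 19 tested genes that respond to glucocorticoids, 11 were higher in ApoE4 than in WT mice at an unadjusted p under 0.05 (3.23% of all genes) and 0 lower, with summed levels of 1349 to 1430 CPM in ApoE4 and 1048 to 1264 CPM in WT libraries, and their part in the values of the members was not tested.

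The WT libraries of both batches differed in the fast members. In WT mice of batch 2 against WT mice of batch 1, 24 of the 41 members were higher without overlap, against 13.2% of all genes, and 1 was lower, against 17.7%. By speed, these were 20 of 26 fast and 4 of 14 delayed members, and the 1 lower member was *Vgf*. The median log2 ratio was 0.66 in the fast members and 0.16 in the delayed members, beside -0.017 over all genes. *Fos* was 2.71 times, *Klf4* 3.65 times, *Atf3* 2.85 times, *Klf2* 2.78 times, *Egr2* 2.31 times and *Arc* 1.91 times as high. Summed endothelial markers were 176 to 215 CPM in WT libraries of batch 2 and 81.4 to 90.2 CPM in those of batch 1. Batch and anything else that separated these mice cannot be told apart.

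Likeness to the mean of the fast members was measured by Pearson's r of log2 CPM, centred on the group mean, over the 15 libraries, as a description. The members with the highest r, each being part of the mean, were *Klf10* (0.89), *Egr4* (0.87), *Egr2* (0.87), *Junb* (0.86), *Nr4a1* (0.84) and *Arc* (0.82), and *Fos* had 0.78. The median was 0.60 over the 26 fast and -0.23 over the 14 delayed members, beside 0.0057 over 13870 other protein-coding genes. Of the 14 delayed members, 9 had a negative r, the lowest in *Bdnf* (-0.57), *Homer1* (-0.51) and *Nr4a2* (-0.47). *Dusp5* (0.57) and *Dusp6* (0.53), also delayed, ran with the fast mean. Of the 26 fast members, 3 had a negative r, namely *Trib1* (-0.27), *Maff* (-0.26) and *Jun* (-0.03). The protein-coding genes outside the members that were most alike were *Tmprss5* (0.94), *Zfp69* (0.93), *Xrcc3* (0.92), *Cxcl5* (0.91), *Midn* (0.91), *Mrpl33* (0.91), *Zbtb39* (0.90) and *Tdg* (0.90). *Midn* and *Tdg* averaged 42.9 and 31.9 CPM, while *Tmprss5*, *Zfp69* and *Cxcl5* averaged 1.27 to 1.40 CPM.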

How the data were processed

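RNA of whole hippocampi was sequenced as directional polyA libraries, and the authors trimmed reads with Trimmomatic 0.39, aligned them with STAR 2.7.1a and made gene counts with HTSeq 0.11.2, per the labels and methods; the deposited values are these raw counts, not normalized. Here, counts of the 15 libraries were scaled by the upper quartile, and a gene was kept where 3 or more libraries exceeded 1 CPM (16171 of 55471 genes). edgeR 4.0.16 in R 4.3.3 gave quasi-likelihood F tests with Benjamini-Hochberg adjustment over all genes tested, for batch 1 (9 libraries), batch 2 (6 libraries) and the difference of effects (15 libraries); DESeq2 1.42.0 was an alternative. Log2 fold changes are fitted values. P-values measure only the spread between these libraries, and the script was tested on simulated data. The members, roles and lists were chosen with earlier results of these data known. Values in every library were given for 10 members set by name and for the 4 with the smallest p per comparison, and up to 3 genes of other lists per comparison were named. DM and WT libraries of the same number correlated in their deviations from group means (0.45, 0.19 and 0.30), in each pair above 0.1, from the data and not the labels. GENCODE M21 (GRCm38) gave lengths, biotypes and exon overlaps. Promoters come from RefSeq (GRCm38.p6). Counts per member set the precision, and intervals cover the replicate spread.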

Additional observations from a re-analysis of the deposited data

How the results depend on the processing

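The counts of members called or at an unadjusted p under 0.05, the medians of fast and delayed members and the log2 fold changes of the 4 members with the smallest p in each comparison were recomputed with TMM or RLE scaling, the robust likelihood ratio test of edgeR, DESeq2, no filter, filterByExpr, fits of only the groups compared or of all libraries, a replicate block and leave-one-out fits. Of these log2 fold changes, 384 kept direction and call, 7 gained the call and 1 reversed: *Arc* in DM against APP-TKI mice, at 0.065 without the 4 libraries rich in long noncoding RNA. The count of called members, 0 in every comparison, was 1 (DESeq2), 1 (no filter) and 5 (without the 4 libraries) in DM against WT mice, 4 (without the 4 libraries) in APP-TKI against WT mice, 2 (no filter) in DM against APP-TKI mice, 2 (robust test), 1 (DESeq2) and 1 (no filter) in ApoE4 against WT mice, and 1 (no filter) for the difference of effects. With any library left out it was 0. With the replicate block 0 were called in every comparison, and *Fos* in ApoE4 against WT mice was -0.82; the counts of lower members at an unadjusted p under 0.05 were 8 in DM against WT (1.34% of all genes), 5 in APP-TKI against WT (1.84%), 8 in DM against APP-TKI (2.6%) and 7 in ApoE4 against WT mice (1.95%). The labels pair no samples by number, and in the last 3 comparisons libraries of the same number did not deviate together in every pair. The median of the fast members was -0.22 in DM against WT and -0.17 in ApoE4 against WT mice in the core of 12 genes. That core was picked with earlier results of these data known. Without the 4 libraries, the fast median was -0.16 in APP-TKI against WT mice and 0.088 for the difference of effects. In ApoE4 against WT mice it was -0.17 (striatal or thalamic libraries out) and -0.13 (choroid plexus libraries out). For the difference of effects it was 0.088 without the striatal or thalamic libraries. The fits without the 4 libraries or without libraries with such markers were added after the data had been seen. The delayed median in ApoE4 against WT mice was -0.11 without the choroid plexus libraries. With each library left out, the fast median was -0.11 to -0.029 in DM against WT, -0.045 to 0.12 in APP-TKI against WT, -0.21 to -0.041 in DM against APP-TKI, -0.095 to -0.034 in ApoE4 against WT mice and -0.14 to 0.057 for the difference of effects, and the delayed median was -0.075 to -0.0049, -0.12 to -0.042, -0.0013 to 0.074, -0.099 to -0.012 and 0.0036 to 0.096 in the same order. The causes of these shifts were not tested. Counts of a member were 5 to 8690 per library, over 100 in every library for 35 of the 41, and the rest carry the most counting error.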
